A study of Mus musculus with 8 samples.

Results

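The genes described here encode proteins of the cytosolic and the mitochondrial ribosome. They are the rows of the authors' deposited table of changed genes whose name begins with Rpl, Rps, Mrpl or Mrps in the form used for ribosomal proteins, leaving out the S6 kinases and names that end in -ps and a number. By this rule 33 of the 3624 listed genes were members, 20 with a cytosolic and 13 with a mitochondrial name. Among 37 names with a matching start, 2 S6 kinases and 2 pseudogene names were left out.

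The table compared cultured astrocytes from the retinas and optic nerves of Spp1-/- mice (strain B6.129S6(Cg)-Spp1tm1Blh/J, 4 samples) with those of wild-type C57BL/6 mice (4 samples). The pups of both genotypes were at postnatal day 1 to 3, and both kinds of culture grew in DMEM/F12 with 10% serum. Spp1 encodes osteopontin, a secreted phosphoprotein, and the knockout is a germline deletion carried by every cell. The labels give neither sex nor batch. They also leave unsaid if each sample was a culture of its own, so the p-values speak of the spread among the 8 samples alone, and that spread may be technical. No values per sample were analysed here. For every gene the authors' deposited table holds the mean of its normalized counts across samples, the log2 fold change, the standard error of that change and an adjusted p-value. Its genes have adjusted p-values up to 0.0499 and log2 fold changes no smaller than 0.58 in size, so every member had to differ in order to be counted, and a gene outside the table was not shown to be unchanged.

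A ribosome is built from ribosomal RNA and a fixed set of proteins, shared out between a small subunit that reads the messenger RNA and a large subunit that joins the amino acids. The cytosolic ribosome makes nearly all proteins of the cell, and its protein genes belong to the most strongly transcribed ones in dividing and growing cells. The mitochondrial ribosome is descended from a bacterial one and has gained many proteins without a bacterial counterpart. It makes only the subunits of the respiratory chain and of ATP synthase that the mitochondrial genome encodes. The proteins of the mitochondrial ribosome are themselves encoded in the nucleus and made by the cytosolic ribosome.

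The deleted gene fixed the direction of the comparison. Spp1 had an implied mean of 441 normalized counts in Spp1 KO and 26271 in WT, worked out from the mean count and the fold change of the authors' deposited table, with a log2 fold change of -5.90 (standard error 0.11). The file names no direction for its fold changes, and they are taken to be Spp1 KO over WT since Spp1 is negative. The astrocyte gene Gfap, an intermediate filament, had implied means of 91923 normalized counts in Spp1 KO and 58315 in WT, and Aqp4, a water channel, had 34520 in Spp1 KO and 15585 in WT. Markers of other cells moved too in the authors' deposited table. Of 22 macrophage and microglia markers 21 were listed, all higher in Spp1 KO, with a summed implied count of 124769 in Spp1 KO and 29000 in WT. Tmem119 was the marker outside the table. Of 12 Schwann cell markers 8 were listed and lower (summed implied count 782 in Spp1 KO and 4798 in WT), as were 10 of 15 neuron markers (8537 in Spp1 KO and 18911 in WT). Of 14 oligodendrocyte lineage markers 11 were lower and 2 higher (summed implied count 10647 in Spp1 KO and 27771 in WT). Of 12 fibroblast and meningeal markers 9 were higher and 1 lower (108772 in Spp1 KO and 40680 in WT). The astrocyte markers were mixed, since of 14 such genes 5 were higher, Gfap and Aqp4 among them, and 3 lower. The 3 lower ones were S100b (log2 fold change -1.82), Fabp7 (-1.23) and Pax2 (-0.98). Of 20 mitosis genes 17 were listed, all lower (13187 in Spp1 KO and 24613 in WT). In these bulk samples fewer cells of a type and less RNA per cell cannot be told apart, and the part of these markers in the ribosomal protein values below was not tested. The Y-linked helicase gene Ddx3y had an implied mean of 1605 normalized counts in Spp1 KO and 0.16 in WT in the authors' deposited table. The groups thus differed in the RNA of a Y-linked gene. A difference in sex cannot be told apart from genotype in the values below, and its part was not tested. Ddx3y was chosen after its values were seen.

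All 33 listed ribosomal protein genes were lower in Spp1 KO and 0 were higher. About 16600 genes had been tested, an estimate made from how far the authors' adjusted p-values lie above the unadjusted ones. Of these, 21.8% were listed in either direction and 9.84% as lower. Among 77 known proteins of the cytosolic ribosome that carry an Rpl or Rps name, 19 (24.7%) were listed as lower. Among 77 of the mitochondrial ribosome with an Mrpl or Mrps name, 12 (15.6%) were. Both shares were above the 9.84% of all genes, the mitochondrial one by less than the cytosolic one. The difference between the ribosomes was not tested, since genes of one complex are not independent of each other. Abundance was not matched in these shares. The median mean count was 1216 normalized counts over the 33 members and 365 over all genes listed as lower. The median log2 fold change was -0.75 over the 20 listed cytosolic members and -0.77 over the 13 mitochondrial ones in the authors' deposited table. Expressed as a loss, the median member was 40.9% lower in Spp1 KO, against 49.9% for the median of all 1633 genes listed as lower. The falls were small among the listed genes. Rpl39, the member closest to the fold limit, exceeded 1.85% of all listed genes in absolute log2 fold change, and Rps4l, the one farthest from it, exceeded 67.9%.

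**Figure D1:**
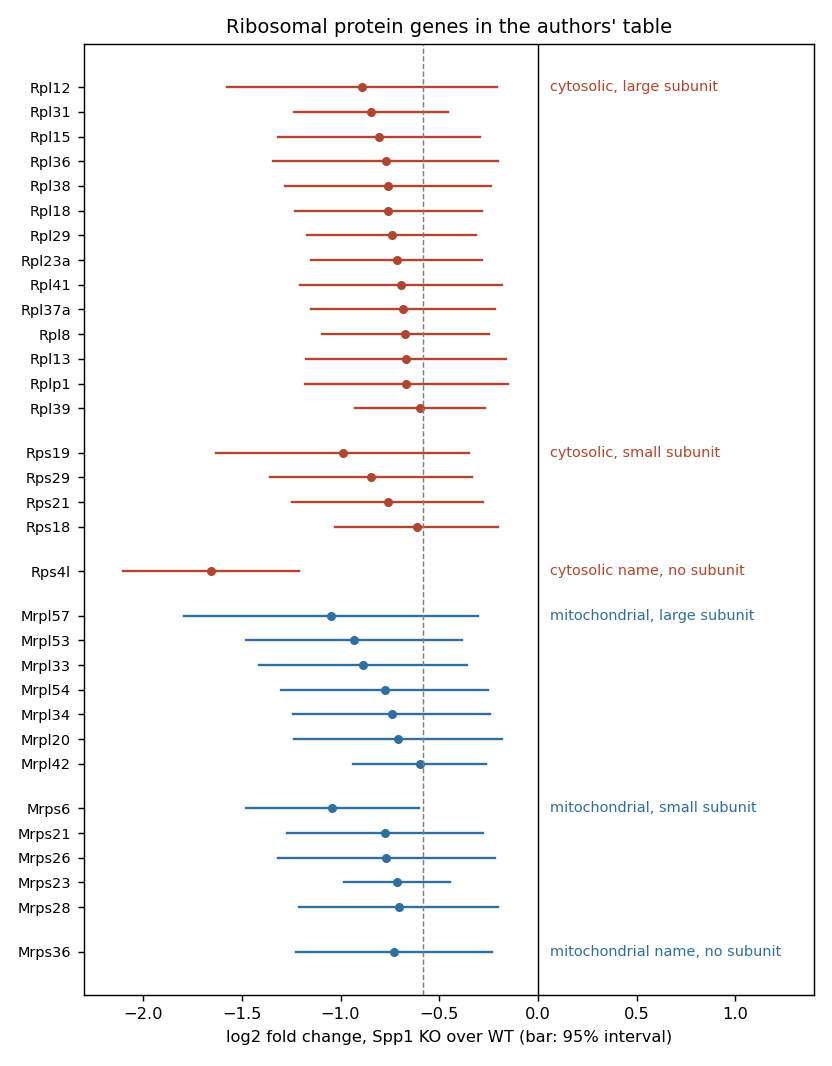
Log2 fold change of Spp1 KO over WT for 32 of the 33 listed ribosomal protein genes, grouped by ribosome and subunit, with 95% intervals from the deposited standard errors. The dashed line marks the fold change limit of the table at -0.58, and each interval drawn includes -0.8 except that of Rps4l.

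The members were hard to tell apart from each other within their errors. In the authors' deposited table their log2 fold changes ran between -1.66 and -0.60, with standard errors of 0.14 to 0.38. The 95% intervals of 32 of the 33 members include a log2 fold change of -0.8, the exception being Rps4l. Intervals lay wholly below the -0.58 limit for 1 of 20 cytosolic members, Rps4l, and for 1 of 13 mitochondrial members, Mrps6. Lying beyond that limit does not set a member apart from the others, and the interval of Mrps6 includes -0.8 too. No order among the members other than Rps4l is therefore read from the values.

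The large subunit of the cytosolic ribosome supplied 14 of its 46 proteins (30.4%). Their log2 fold changes in the authors' deposited table lay between -0.89 and -0.60, with a median of -0.73. Rpl31, a protein near the exit of the nascent chain tunnel, had an implied mean of 1403 normalized counts in Spp1 KO and 2521 in WT. Its log2 fold change of -0.85 (standard error 0.20, authors' adjusted p = 0.00016) is a 44.3% lower level, with an interval of 27.1% to 57.5% lower. Rpl31 lies on chromosome 1 at 39367842 to 39371911 in GRCm38, and 420 of its exon bases are shared with Tbc1d8 on the other strand, which was higher by 1.07 in the authors' deposited table. The sources used here do not state if counting used strand, so reads of such a pair may not have been told apart. Other overlaps on the opposite strand, of 56 to 506 exon bases, were annotated for Rpl12, Rpl15, Rpl18, Rpl23a and Rps18, with partners outside the table.

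Rpl15 had an implied mean of 4640 normalized counts in Spp1 KO and 8110 in WT, with a log2 fold change of -0.81 (standard error 0.26, authors' adjusted p = 0.0093). Rpl12, which sits at the base of the stalk where translation factors bind, had the largest fall of the large subunit at -0.89 but also the largest error, 0.35 (authors' adjusted p = 0.038). Its implied means of 159 normalized counts in Spp1 KO and 296 in WT were the lowest of the subunit. The interval of Rpl12 spans 13.4% to 66.5% lower, so its place at the top of the subunit is within error.

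Several abundant members fell by similar amounts. Rpl23a, a docking site for factors that meet the nascent chain, had implied means of 5253 normalized counts in Spp1 KO and 8624 in WT, with a log2 fold change of -0.72 (standard error 0.22, authors' adjusted p = 0.0062). Rpl29 had 3710 normalized counts in Spp1 KO and 6196 in WT, with a log2 fold change of -0.74 (0.22, authors' adjusted p = 0.0038). Rpl18 had 3134 normalized counts in Spp1 KO and 5304 in WT, with a log2 fold change of -0.76 (0.24, authors' adjusted p = 0.0080). Their intervals overlap throughout, and Rpl18, 40.9% lower, is itself the median member. The fold limit keeps smaller falls out of the table, so likeness of size is not read from these values. In the authors' deposited table Rpl41, whose coding length of 75 bases is the shortest among the coding members, stood at -0.70, Rpl8, near the catalytic centre, at -0.67, and Rpl13 and the acidic stalk protein Rplp1 at -0.67 each.

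Among the less abundant proteins of this subunit, Rpl36 had implied means of 1353 normalized counts in Spp1 KO and 2311 in WT, with a log2 fold change of -0.77 (standard error 0.29, authors' adjusted p = 0.030). Rpl38 is known in the mouse for its part in translating patterning messages, and had implied means of 760 normalized counts in Spp1 KO and 1287 in WT, with a log2 fold change of -0.76 (standard error 0.27, authors' adjusted p = 0.018). Rpl37a stood at -0.68. Rpl39, which lines the exit tunnel, was the only member on the X chromosome (37082520 to 37085402 in GRCm38) and had the smallest fall of all members, -0.60 (standard error 0.17, authors' adjusted p = 0.0023), with 969 normalized counts in Spp1 KO and 1464 in WT.

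The small subunit of the cytosolic ribosome supplied 5 of its 31 proteins (16.1%), a lower share than the large subunit. The share of the small subunit was nearer to the 9.84% of all genes, and the difference between the subunits was not tested. Rps19, the first gene found mutated in human Diamond-Blackfan anaemia, had implied means of 2148 normalized counts in Spp1 KO and 4262 in WT. Its log2 fold change of -0.99 carried a standard error of 0.33 (authors' adjusted p = 0.011) in the authors' deposited table. Rps29 stood at -0.84 (0.26), Rps21 at -0.76 (0.25) and Rps18, a protein of the subunit head, at -0.62 (0.21) in the authors' deposited table.

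Rps4l had the largest fall of all members. It had implied means of 164 normalized counts in Spp1 KO and 515 in WT, a log2 fold change of -1.66 (standard error 0.23, authors' adjusted p = 6.28e-12) in the authors' deposited table, and a 3.15-fold lower level. Its name is that of a copy of the small subunit protein gene Rps4x, but the GENCODE M21 annotation has it as a transcribed processed pseudogene with 1 exon and no coding part, on chromosome 6 at 148354656 to 148355598 in GRCm38. It is a member by its name and is not counted with either subunit. Its interval, 56.8% to 76.7% lower, lies beyond the point estimate of each other member. It overlaps the intervals of most other members, among them Mrpl57, Rps19, Rpl12 and Mrps6, and the interval of Mrpl57 includes the estimate of Rps4l. Rps4x itself and the other 8 genes on a list of ribosomal protein paralogs, among them Rpl3l, Rpl22l1, Rpl39l and Rps27l, were outside the table. The share of that list, 1 of 9 (11.1%), was near the 9.84% of all genes listed as lower.

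**Figure D2:**
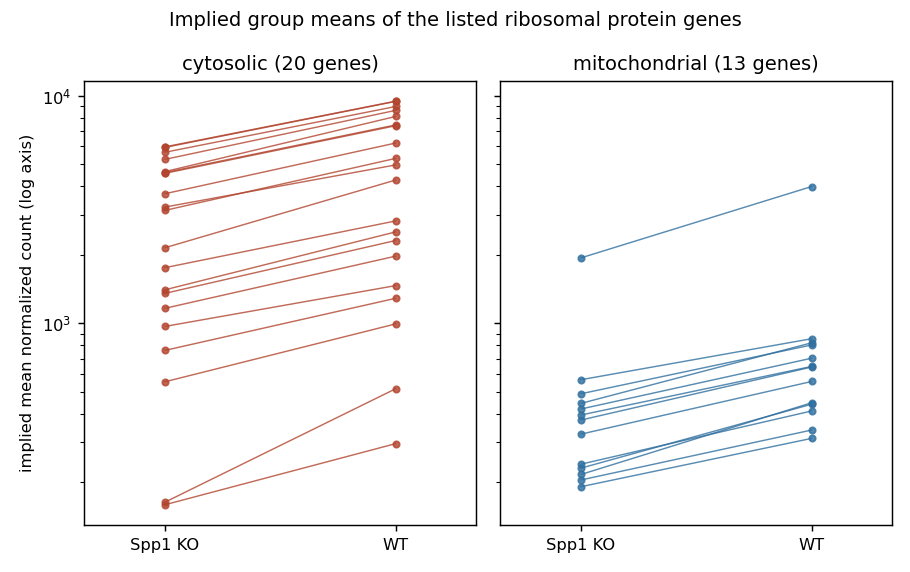
Implied mean normalized count (log axis) of each listed gene in Spp1 KO and WT, worked out from the mean count and fold change of the authors' deposited table. Each line is 1 gene and each is lower in Spp1 KO, Rps4l (164 in Spp1 KO and 515 in WT) has the steepest line, and Mrps6 at 1939 in Spp1 KO and 3991 in WT lies above the other mitochondrial members.

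On the mitochondrial ribosome the large subunit supplied 7 of 51 proteins (13.7%) and the small subunit 5 of 26 (19.2%). Unlike in the cytosolic ribosome, the small subunit had the higher share, and this difference was not tested either. In the authors' deposited table the median log2 fold change of the listed members was -0.78 in the large and -0.77 in the small subunit. Proteins numbered up to Mrpl36 and Mrps21 were taken as those with a bacterial counterpart, a rough rule. Of 33 proteins without one 7 were listed (21.2%), and of the 44 others 5 were (11.4%), all lower in the authors' deposited table, against 9.84% of all genes. The contrast rests on 7 and 5 genes and was not tested.

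In the large subunit Mrpl57 had the largest fall of the subunit and the largest error of all members. Its implied means were 216 normalized counts in Spp1 KO and 447 in WT, with a log2 fold change of -1.05 (standard error 0.38, authors' adjusted p = 0.023) and an interval of 19.0% to 71.1% lower. Mrpl53, with 231 normalized counts in Spp1 KO and 441 in WT, stood at -0.93 (0.28, authors' adjusted p = 0.0044). All 695 bases of its main transcript also belong to exons of Gm42688 on the same strand, so its count is uncertain. Mrpl33 and Mrpl34, which have bacterial counterparts, stood at -0.88 (standard error 0.27, authors' adjusted p = 0.0051) and -0.74 (0.25, 0.015). Mrpl54 stood at -0.78 (0.27, authors' adjusted p = 0.016). Mrpl42 had the smallest fall of the subunit, -0.60, and also its smallest error, 0.17, and smallest authors' adjusted p, 0.0027. Mrpl20 stood at -0.71 in the authors' deposited table.

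In the small subunit Mrps23, a protein without a bacterial counterpart, had the smallest error of all members. It had 490 normalized counts in Spp1 KO and 803 in WT, with a log2 fold change of -0.71 (standard error 0.14, authors' adjusted p = 2.22e-06). Mrps6, a relative of a bacterial small subunit protein, had 1939 normalized counts in Spp1 KO and 3991 in WT, a log2 fold change of -1.04 (standard error 0.22, authors' adjusted p = 3e-05) and an interval of 34.2% to 64.2% lower. Mrps6 was the only mitochondrial member with a mean above 1000 normalized counts. Mrps6 spans 92058270 to 92112227 on chromosome 16 in GRCm38, and its exons share 159 bases with Slc5a3, a transporter gene, and 305 with Gm49711, both on the same strand and both outside the table. Its count is uncertain for that reason. Mrps21 stood at -0.77, Mrps26 at -0.77 and Mrps28 at -0.71 in the authors' deposited table.

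Mrps36 stood at -0.73 in the authors' deposited table. It has a ribosomal name, but its protein is now assigned to the 2-oxoglutarate dehydrogenase complex. It is counted among the 13 members by name and not among the 12 in the subunits. Of the proteins with other names, the 3 looked up for the cytosolic ribosome were outside the table, Fau and Rack1 among them. So were the 5 looked up for the mitochondrial one, Dap3, Ptcd3, Aurkaip1, Chchd1 and Gadd45gip1. With 9.84% of all genes listed as lower, the absence of so few genes is not read as a contrast.

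Per kilobase of the main annotated transcript, the listed cytosolic members had a median implied level of 3049 normalized counts in Spp1 KO and 5277 in WT, and the mitochondrial members 398 in Spp1 KO and 682 in WT. The cytosolic range was 128 to 11945 in Spp1 KO and 238 to 18962 in WT, and the mitochondrial range 75.3 to 2292 in Spp1 KO and 130 to 4717 in WT. The ranges of the ribosomes overlap in both genotypes. Per gene the loss was 33.8% to 49.6% among cytosolic members other than Rps4l, which was 68.3% lower, and 34.0% to 51.6% among mitochondrial members. The smallest losses are set by the fold limit of the table, so likeness of size between the ribosomes is not read from them.

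Other gene lists of translation and growth had between 0 and 21.4% of their genes listed as lower, against 24.7% of the cytosolic and 15.6% of the mitochondrial ribosomal proteins. The growth regulators (21.4%) and the elongation and termination genes (20%) were above the mitochondrial ribosome and above the cytosolic small subunit (16.1%), each with 3 genes listed as lower. Of 62 genes of cytosolic ribosome biogenesis 8 were lower and 1 higher in the authors' deposited table. The lower ones included Rrs1, needed for the large subunit (-0.89, standard error 0.21), Mrto4 (-0.74, 0.17) and Fbl, the methyltransferase of ribosomal RNA (-0.74, 0.24). Utp15, of the small subunit processome, was higher by 0.75 (0.20). The share listed as lower was 12.9%, a little above the 9.84% of all genes and below the 15.6% of the mitochondrial ribosomal proteins. Of 14 RNA polymerase I genes 1 was listed (7.14%, below the share of all genes), Polr1d at -0.58 in the authors' deposited table.

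Of 43 genes of translation initiation 2 were lower and 1 higher. The share listed as lower, 4.65%, was below the 9.84% of all genes. Eif4ebp1, the mTOR-regulated inhibitor of cap binding, stood at -1.07 (standard error 0.25) and Eif1, which takes part in start codon choice, at -0.67 (0.16), while Eif4e3, a cap-binding protein, was higher by 1.11 (0.16) in the authors' deposited table. Of 15 elongation and termination genes 3 were lower and 0 higher: Eef1a2, the elongation factor form of neurons and muscle, at -1.58 (0.23), Eif5a at -0.59 (0.19) and Gspt2 at -0.59 (0.16). Of 20 cytosolic tRNA synthetase genes 0 were listed. Among 14 regulators of ribosome production 3 were listed, all lower: Myc at -0.77 (standard error 0.16, authors' adjusted p = 9.48e-06), Mycl at -1.01 (0.38) and the S6 kinase gene Rps6kb2 at -0.80 (0.25). The other S6 kinase in the table, Rps6ka1, was higher by 0.64 (0.15).

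On the mitochondrial side, 3 of 24 assembly factors were listed, all lower: Mtg2 (-0.87), Noa1 (-0.66) and C1qbp (-0.59), in the authors' deposited table. The share listed as lower was 12.5% of the assembly factors, a little above the 9.84% of all genes. It was 5.88% of the translation factors and 8.33% of the regulators of mitochondrial biogenesis, both below that share. Of 17 translation factors 1 was listed, the elongation factor Tsfm at -0.73 (standard error 0.27). Of 20 mitochondrial tRNA synthetase and amidotransferase genes, Ears2 (-0.75), Yars2 (-0.73) and Vars2 (-0.64) were lower and Pars2 was higher by 0.74. Their share listed as lower, 15%, was above that of all genes and near the 15.6% of the mitochondrial ribosomal proteins. Among 12 regulators of mitochondrial biogenesis the coactivator Ppargc1a was listed at -0.67 (0.22). The products of the mitochondrial ribosome gave 1 listed gene of 13, mt-Nd4l, which was higher by 0.62 (0.17). It had 13477 normalized counts in Spp1 KO and 8741 in WT. The share of these 13 genes listed in either direction, 7.69%, was below the 21.8% of all genes. Both mitochondrial ribosomal RNAs were outside the table.

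**Figure D3:**
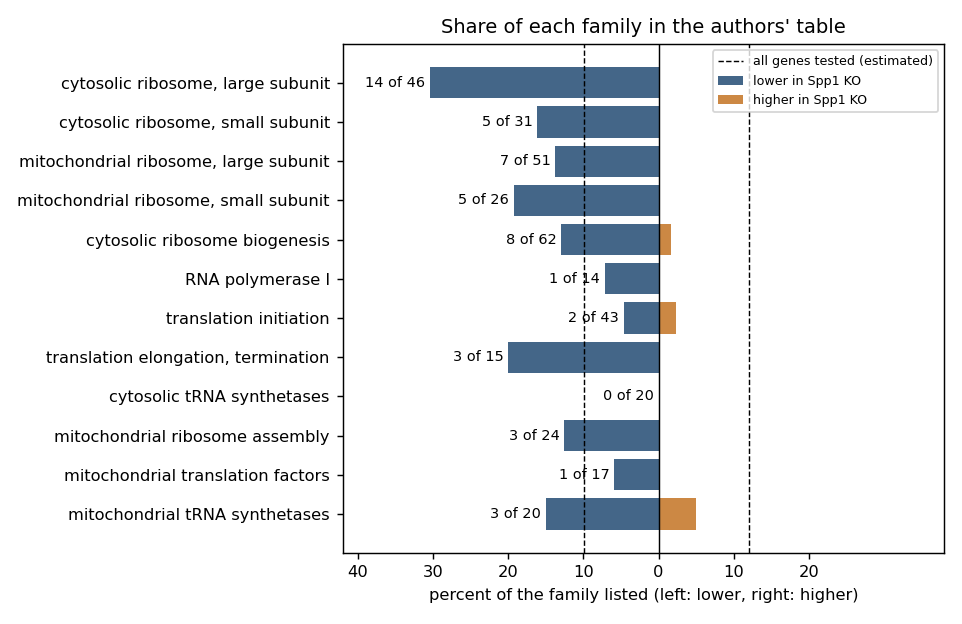
Percent of each gene family listed in the authors' deposited table as lower (bars to the left) or higher (bars to the right) in Spp1 KO, with the count lower of the family size beside each bar. Dashed lines mark the share of about 16600 tested genes listed in each direction, which is 9.84% for lower. The large subunit of the cytosolic ribosome has the longest bar at 14 of 46.

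The members had large standard errors for their abundance. Each was set beside the listed genes whose mean count lay within a factor of 1.5 of its own, between 95 and 689 genes. The deposited error of a cytosolic member exceeded that of 90.1% of these genes at the median, 19 of 20 members were above the middle of their comparison genes, and 10 of 20 were above 90%. The median error was 0.24 for the cytosolic members, against a median of 0.16 for their comparison genes. For the mitochondrial members the median was 80.3%, with 11 of 13 above the middle, and errors of 0.26 against 0.20. Rps19 was highest among the cytosolic members at 98.9% and Rpl39 lowest, in the middle, while Mrpl57 was highest among the mitochondrial ones at 98.1% and Mrps23 lowest at 11.9%. The smallest absolute Wald statistic of the authors' deposited table was 2.43, so at the median cytosolic error a log2 fold change had to reach 0.59 to be listed. Which samples carried the spread was not analysed here.

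**Figure D4:**
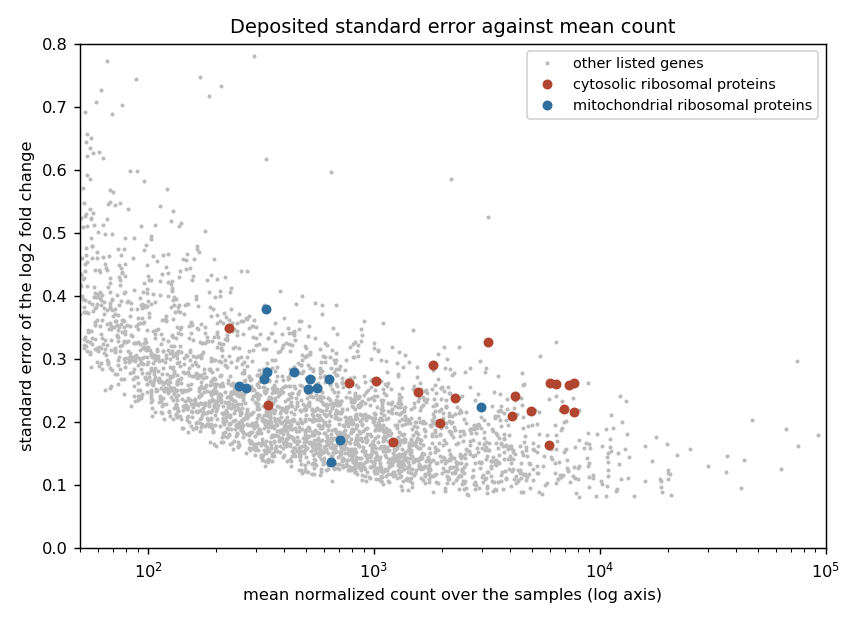
Deposited standard error of the log2 fold change against the mean normalized count (log axis) for members and other listed genes, drawn for counts of 50 and over and errors up to 0.8. Most cytosolic members with counts above 1000 lie high in the cloud, among them Rps19 above 98.9% of its comparison genes, while Rpl39 lies in the middle.

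Transcript length moved with direction in the table as a whole. The main transcript was under 1000 bases in 26 of the 33 members. Of the other listed genes with transcripts that short, 128 of 205 (62.4%) were lower in Spp1 KO, against 1451 of 3348 (43.3%) of those at least as long as that. Within the range of mean counts that the members cover, 84 of 100 short genes (84%) were lower, with a median of -0.80 over all 100 log2 fold changes and a median error of 0.24, against 815 of 1898 long genes (42.9%) with a median error of 0.19. Short listed genes outside the set were thus mostly lower as well, and the part of length in the values of the members was not tested. Among the cytosolic proteins the median main transcript had 612 bases for the 19 listed and 901 for the 58 not listed, while their median coding lengths were close, 435 bases for the listed and 469.5 for those not listed. Among the mitochondrial proteins it had 730 bases for the 12 listed and 1411 for the 65 not listed, and the median coding length was 390 bases for the listed and 618 for those not listed.

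**Figure D5:**
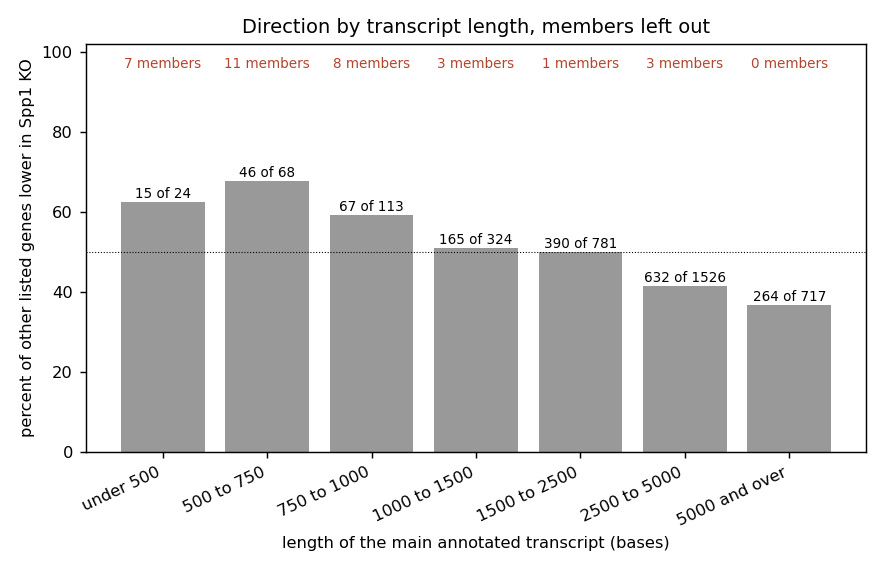
Percent of the listed genes that are not members and were lower in Spp1 KO, by length of the main annotated transcript, with counts above the bars and the number of members in each length class in red. The share is 67.6% at 500 to 750 bases and 36.8% at 5000 bases and over, and 26 of 33 members lie in the 3 shortest classes.

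Copies of ribosomal protein genes affect what a count can mean. Retrocopies of these genes are scattered through the mouse genome, and reads that match several places may be dropped or shared out. A near-identical copy, with at least 95% identity over at least 80% of the coding part, was annotated for 18 of the 20 cytosolic members and for 4 of the 13 mitochondrial ones. Rpl29 had the most, with 27, followed by Rpl23a with 19, and Rpl8 was the only member of a cytosolic subunit with 0. Rps4l, without a coding part, was searched over its whole transcript and had 0. The fold changes of the 18 are uncertain on this ground, as are those of the 4 mitochondrial members, Mrps36 with 4 copies and Mrpl42, Mrpl53 and Mrps21 with 1 each. The copy of Mrpl53 is annotated as protein-coding and not as a pseudogene. It may be the overlapping Gm42688, which was not checked. Rpl8 stood at -0.67, and the 9 mitochondrial members without a copy had a median of -0.77. At least 1 copy was annotated for 56 of the 58 cytosolic proteins that were not listed. Of the pseudogene names left out, given here after their values were seen, Rpl28-ps1 stood at -0.78 (standard error 0.30), while Rpl19-ps3 had a log2 fold change of 4.46 at a mean of only 3.06 normalized counts in the authors' deposited table. The 33 members lie on 18 chromosomes. Mrpl33 is the one on chromosome 5 with Spp1, 72.8 Mb away from it.

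The promoters are shown because the listed members of both ribosomes often held the same short sequence there. RefSeq promoters of 300 bases, with 250 before and 50 after the annotated start, were at hand for 23 of the 33 members in build GRCm38.p6. The letters CGGAAG, the core that ETS-family factors such as GABP bind, occurred on either strand in 9 of 12 cytosolic and 8 of 11 mitochondrial members, against 17.2% of 27025 RefSeq genes and 18.9% of the listed genes that have such a promoter. The stretches below run from 70 bases before the annotated start to 20 after it on the strand of the gene, 5′ to 3′, with the core or its reverse complement in capitals. The counts above are over the full 300 bases, and Rpl12 and Rpl39 held the core there but not in this shorter stretch. The stretches were picked after their letters were seen, so they do not show how often the core occurs. The first 4 belong to the cytosolic and the next 4 to the mitochondrial ribosome, and the last, Mrps6, is a member without the core.
Rps18, chr17:33955646-33955735, minus strand: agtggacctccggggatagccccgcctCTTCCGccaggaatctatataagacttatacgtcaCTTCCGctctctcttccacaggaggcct
Rpl37a, chr1:72711190-72711279, plus strand: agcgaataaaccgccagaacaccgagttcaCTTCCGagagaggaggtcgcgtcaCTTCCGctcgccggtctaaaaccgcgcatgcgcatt
Rpl38, chr11:114668510-114668599, plus strand: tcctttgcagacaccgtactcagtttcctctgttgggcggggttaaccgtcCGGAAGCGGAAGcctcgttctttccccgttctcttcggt
Rpl31, chr1:39367781-39367870, plus strand: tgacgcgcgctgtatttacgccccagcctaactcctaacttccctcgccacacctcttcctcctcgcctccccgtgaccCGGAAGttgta
Mrpl53, chr6:83109038-83109127, plus strand: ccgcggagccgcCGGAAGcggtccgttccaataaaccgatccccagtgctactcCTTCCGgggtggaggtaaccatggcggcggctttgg
Mrpl33, chr5:31613881-31613970, plus strand: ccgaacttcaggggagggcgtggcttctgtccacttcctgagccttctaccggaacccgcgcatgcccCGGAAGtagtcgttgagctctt
Mrpl34, chr8:71464856-71464945, plus strand: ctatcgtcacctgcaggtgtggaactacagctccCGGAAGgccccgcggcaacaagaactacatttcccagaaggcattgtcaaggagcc
Mrps26, chr2:130563687-130563776, plus strand: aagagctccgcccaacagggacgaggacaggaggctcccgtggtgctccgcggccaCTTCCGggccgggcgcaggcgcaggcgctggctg
Mrps6, chr16:92058266-92058355, plus strand: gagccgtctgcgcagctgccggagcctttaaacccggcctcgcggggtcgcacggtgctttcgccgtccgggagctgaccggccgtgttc

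The letters were also frequent in the unlisted proteins of both ribosomes. They occurred in 31 of 45 cytosolic (68.9%) and 30 of 58 mitochondrial proteins (51.7%) outside the table. A run of at least 8 C or T bases on the gene's strand, between 25 bases before and 50 after the start, is the kind of sequence that forms the terminal oligopyrimidine tract, by which mTOR signalling controls the translation of cytosolic ribosomal protein messages. Such a run was present in 12 of 12 cytosolic members and in 5 of 11 mitochondrial ones, against 27.1% of all RefSeq genes, and in 31 of 45 cytosolic and 14 of 58 mitochondrial proteins outside the table. The window is longer than the tract and annotated starts can be some bases off, so the run is a description of the letters only. GGGCGG, the core bound by SP1, occurred on either strand in 9 of 12 cytosolic and 5 of 11 mitochondrial members, against 35.9% of RefSeq genes and 55.4% of listed ones. It occurred in 55.6% of the cytosolic and 50% of the mitochondrial proteins outside the table. TATAAA occurred in 1 of 23 members, against 14.2% of RefSeq genes and 9.96% of listed ones. Its share was 8.89% of the cytosolic and 6.90% of the mitochondrial proteins outside the table.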

How the data were processed

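RNA from 4 Spp1 KO and 4 WT astrocyte samples was sequenced, and the values analysed are 1 comparison deposited by the authors, with 0 columns of per-sample values. CASAVA 1.8, STAR 2.7, DESeq2 1.30.1 and the build GRCm38 appear, without roles, in the submitters' processing notes. Annotation and counting: not given in the sources used here. Per the file headers the authors deposited the mean normalized count across samples (a signal), the log2 fold change and its log2 standard error, the Wald statistic (a score), and the raw and adjusted p-value. Sample depth is unknown. The planned count model did not apply, since the file holds no counts per sample.

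From these values, implied group means were worked out with groups taken as equal in size, and 95% intervals from a normal approximation with the deposited errors. The number of genes tested was estimated from the 20 smallest p-values above 0, and about 1476 genes passed the adjusted p limit but not the fold limit. Positions, transcript lengths (the preferred coding transcript) and overlaps come from GENCODE M21, which matched 3586 of 3624 names, and copies from BLAST 2.17.0. Known subunit lists counted Mrps18a and Mrps30 with the mitochondrial large subunit. The table arithmetic was tested on simulated data. Members and lists were chosen with earlier results of these data known. Genes were named by a rule: the 5 largest changes and 5 smallest adjusted p-values per subunit, paralogs, X-linked genes, and up to 4 genes per related list, and those in the minority direction. Other members are given with a fold change only, and the promoters shown were picked after their letters were seen. Python 3.11.15 was used with pandas 2.3.3. Alternatives were a stricter fold change, adjusted p, mean count or interval, and subunits by known list. Values of 1 member are not reported singly here, though it is included in the counts and medians.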

Additional observations from a re-analysis of the deposited data

How the results depend on the processing

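All counts below are of members lower in Spp1 KO, and 0 members were higher under every alternative run. Where log2 fold changes had to reach 1 in size, 1 cytosolic member (Rps4l, -1.66) and 2 mitochondrial members (median -1.04) were left. With an adjusted p of at most 0.001 the counts were 3 and 2, and with intervals wholly beyond 0.3 they were 6 and 5. Without members that have a near-identical copy, 2 cytosolic members were left, Rpl8 and Rps4l, with a median of -1.16. That alternative and the one without overlapping genes were chosen after seeing the data. Counts of 20 and 13 stayed within 1.5 times under a mean count of at least 100, known subunits only and no overlapping genes, and both medians lay between -0.93 and -0.72 wherever the count was above 2 in either ribosome. Most members thus lie near the limits of the table, where a stricter limit removes them by construction. No paired analysis was possible because the file holds no values per sample, and leaving out replicates was not run for the same reason. Depth is unknown, and the deposited errors carry the precision.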
